A study of Saccharomyces cerevisiae with 8 samples.

Results

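The 40 budding yeast genes described here encode the machinery that shortens and degrades RNA from its 3′ end, together with the factors that promote removal of the 5′ cap. They were picked by name, as the rows with 40 listed systematic names among the 11844 features of the deposited table, of which 5942 are protein-coding genes. The nuclear set has 21 genes. It holds 10 subunits of the core exosome (RRP4, RRP40, SKI6, RRP42, RRP43, RRP45, RRP46, MTR3, CSL4 and DIS3), the 3 nuclear exosome cofactors RRP6, LRP1 and MPP6, the 5 TRAMP genes MTR4, PAP2, TRF5, AIR1 and AIR2, and the 3 early termination genes NRD1, NAB3 and SEN1. The cytoplasmic set has 19 genes. It holds the 6 decapping enhancers EDC1, EDC2, EDC3, PAT1, LSM1 and DHH1, the 6 Ccr4-Not genes CCR4, POP2, NOT3, NOT5, CDC39 and CDC36, PAN2 and PAN3, the 4 Ski genes SKI2, SKI3, SKI8 and SKI7, and DCS1. The core exosome works in both compartments and is counted with the nuclear set, so results are also given for the other 11 nuclear genes alone.

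The series asked which RNAs keep a cap when translation is blocked or when nonsense-mediated decay is lost. All 8 libraries came from strain BY4741 (MATa his3Δ1 leu2Δ0 met15Δ0 ura3Δ0) grown in the rich medium YPD at 30 °C to an OD600 of 0.5. The 4 groups were wild type (WT) in DMSO, WT in cycloheximide (CHX, a blocker of translation elongation, at 100 µg/ml), upf1 in DMSO and upf1 in CHX, each treated for 15 min and each with 2 biological replicates. The upf1 cells carry upf1*::kanMX4, an allele of the gene for the helicase of nonsense-mediated decay, in the same background. Which bases of that gene the allele leaves is not given in the sources used here. Before library preparation the total RNA was digested with Terminator, an exonuclease that destroys RNA whose 5′ end is a monophosphate but leaves capped RNA. Undigested libraries were not analysed here, so more RNA, a larger capped share and less complete digestion cannot be told apart as the source of a higher value. How the libraries' scaling factors were set is not given in the sources used here. Their part in a shift shared by most genes was not tested. Whole cultures were extracted, so fewer cells with an RNA and less RNA per cell cannot be told apart either.

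In background, the exosome is a barrel of RNase PH-like subunits under a cap of RNA-binding subunits, with Dis3 as the nuclease at its base. In the nucleus it trims rRNA and snoRNA precursors and destroys noncoding transcripts. Rrp6 adds a further nuclease there, TRAMP adds a helicase and a short poly(A) tail, and Nrd1-Nab3-Sen1 ends short transcripts and hands them over. In the cytoplasm an mRNA first loses its poly(A) tail to Pan2-Pan3 and Ccr4-Not. It then either loses its cap, helped by Dhh1, Pat1, Lsm1 and the Edc proteins, and is degraded from the 5′ end, or is threaded into the exosome by the Ski complex. Dcs1 hydrolyses the cap remnant that the second route leaves.

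Before their start codons, more of the nuclear than of the cytoplasmic genes carried a short sequence called PAC. This element (named for polymerase A and C) is known from the promoters of yeast ribosome biogenesis genes, and its letters GATGAG were searched on both strands of the 250 bases before each start codon. They were present in 11 of 21 nuclear genes (52.4%) and in 3 of 19 cytoplasmic genes (15.8%). Among 6020 protein-coding genes of the R64 annotation with a full window, 1023 (17.0%) had them, as did 46 of 50 ribosome biogenesis genes (92.0%). The core exosome had 6 of 10, the cofactors 2 of 3, TRAMP 3 of 5 and Nrd1-Nab3-Sen1 0 of 3. The longer form GCGATGAG was found before RRP4, LRP1, MTR4, TRF5 and AIR1, which makes 5 of 21 nuclear genes (23.8%), against 0 of 19 cytoplasmic genes and 230 of the 6020 genes (3.82%). RRPE, the element that often accompanies PAC (letters AAAATTTT, the same on both strands), was in 4 of 21 nuclear and 2 of 19 cytoplasmic windows, against 8.62% of all genes. DIS3 and MPP6 held both elements, which did not overlap there, and MTR3 and TRF5 each held a pair of overlapping PAC copies. A match is a run of letters and not a shown site of binding, and the difference in shares was not tested.

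The 5 sites of the longer form and, for contrast, the sites before the cytoplasmic genes DHH1 and CCR4 are printed because they show how the longer and shorter forms differ in their neighbours. The shorter form is not particular to the cytoplasmic set. RRP40, RRP43, MTR3, CSL4, DIS3 and MPP6 of the nuclear set also hold only that form, as does SKI2, and are not printed. Each is the gene's own strand, 5′ to 3′, from the R64 genome (RefSeq), with the PAC letters or their reverse complement in capitals. RRP4 lies on the minus strand at VIII:234760-234789, LRP1 on the plus strand at VIII:267394-267423, MTR4 on the plus strand at X:342371-342400, TRF5 on the plus strand at XIV:66339-66368 and AIR1 on the minus strand at IX:212058-212087. DHH1 lies on the minus strand at IV:172151-172180 and CCR4 on the minus strand at I:113537-113566.
RRP4: tatggattgagcGATGAGgtgaaaaaaaaa
LRP1: cagtttttcagcGATGAGctaaggcagatg
MTR4: tcactttcttgcGATGAGatgcacatagta
TRF5: caggcatctcatCTCATCgcagttaaaaaa
AIR1: aattagcgatgcGATGAGtgggaaaggtcc
DHH1: tatttCTCATCattggattcagttttgttt
CCR4: tcagcattaattCTCATCgtggtagatctc
The PAC letters began 119 bases before the start codon in RRP4, 132 in LRP1, 139 in MTR4, 166 in TRF5 and 70 in AIR1. In DHH1 and CCR4 they began 245 and 195 bases before it. Of the sites not printed, they began 250 bases before it in SKI2, and in the nuclear genes from 38 in RRP40 to 196 in MTR3.

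**Figure D1:**
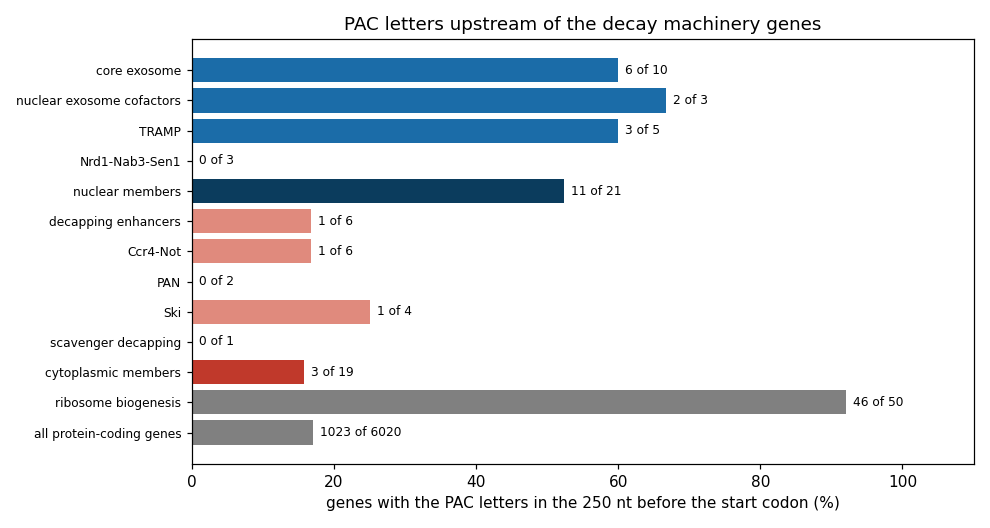
Share of genes with the letters GATGAG, on either strand, in the 250 bases before the start codon (horizontal axis, percent), for each role group, both compartments, ribosome biogenesis genes and all protein-coding genes; the text beside each bar gives the genes counted. The nuclear bar stands at 52.4%, the cytoplasmic bar at 15.8% and the bar of all genes at 17.0%.

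The libraries held 1310994 to 5689067 reads in features, and each member had 0 to 811 reads in a library. The median per member and library was 13 reads with DMSO and 36 with CHX in WT cells, and 24 and 68 reads in upf1 cells, so changes of the less abundant members carry wide errors. Levels are in scaled reads per kb, which is the deposited density per kilobase, and replicate 1 comes before replicate 2. NAM7, the gene for Upf1, stood at 14.8 and 15.2 with DMSO and 83.5 and 44.8 with CHX in WT cells, and at 5.94 and 2.80 with DMSO and 13.5 and 10.1 with CHX in upf1 cells. The reads left on NAM7 in upf1 cells were lower than in WT under each treatment but not 0. Summed over 6 MATa marker genes, levels were 6020 to 29200, against 3.51 to 74.8 over 3 MATalpha genes, which goes with the labelled mating type. All 40 members passed the filter of a mean of 2 scaled reads per kb, each is a single coding exon, and none overlaps another annotated gene on either strand. TRF5, SKI3 and SKI7 passed it only through their CHX libraries. Their WT and upf1 DMSO means were 0.226 and 2.10, 2.25 and 1.51, and 0.933 and 1.69. For these genes the filter favours a rise with CHX, and the only CHX call among them is that of SKI3 in upf1.

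Levels per length spanned a wide range. The highest member in every group was EDC2, which encodes a small enhancer of decapping and whose WT mean was 152 ± 48.1 with DMSO and 535 ± 31.0 with CHX (SD, n = 2). The lowest was TRF5 in WT DMSO, with 1 read in replicate 1 and 0 in replicate 2, SKI7 in WT CHX at 1.92 ± 0.271 (SD, n = 2), SKI3 in upf1 DMSO at 1.51 ± 0.316 (SD, n = 2), and TRF5 again in upf1 CHX, with 0 and 18 reads. Next below EDC2 in WT DMSO came CDC36 at 62.2 ± 23.4, CCR4 at 57.5 ± 4.53, RRP42 at 54.6 ± 8.11 and NRD1 at 46.8 ± 0.384 (SD, n = 2), each within the range of the CDC36 libraries. Within the exosome, RRP42 and RRP40 (36.8 ± 0.847, SD, n = 2) lay above the other 8 subunits, which ran from 6.55 for RRP46 to 15.8 for DIS3. The subunits of the complex were thus not at equal levels per length, and the same pair led in all 4 groups. Ccr4-Not showed a wider spread: CCR4, POP2 and CDC36 were at 38.0 to 62.2, while NOT3, NOT5 and CDC39 were at 5.09 to 7.02, with no overlap between the sets in any library.

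**Figure D2:**
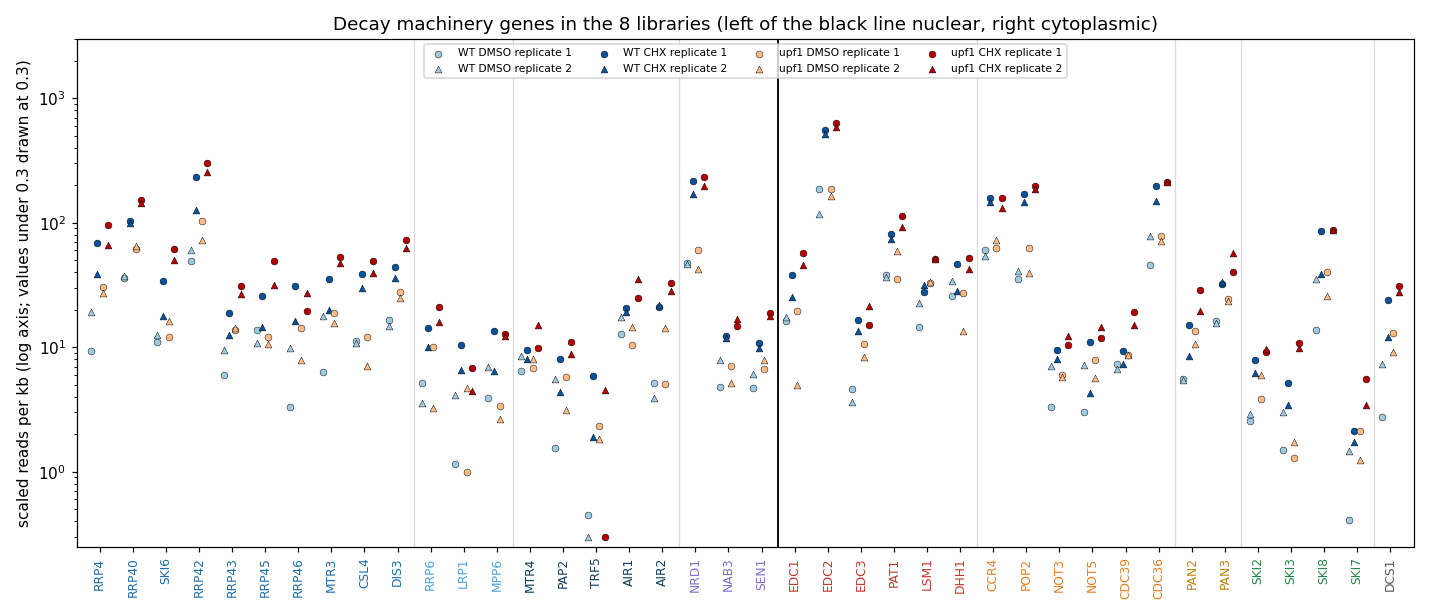
Level of each member in each of the 8 libraries (log axis, scaled reads per kb), with nuclear members left of the black line and cytoplasmic members right of it; colours mark the groups and symbols the replicates, and values under 0.3 are drawn at 0.3. EDC2 is highest in all groups, and CHX libraries (dark colours) lie above DMSO libraries for most members.

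On the deposited scale most of the machinery was higher with CHX in WT, in step with most other genes. Of the 40 members, 23 were higher and 0 lower (limma on log2 values, adjusted p under 0.05 over 10392 features), against 68.4% of 5527 protein-coding genes called higher and 0.0181% called lower. The median change was 0.98 on the log2 scale over the members and 1.23 over protein-coding genes. In 34 of 40 members both CHX libraries lay above both DMSO libraries, a pattern that 85.9% of protein-coding genes showed, and 0 members had the reverse, against 0.633%. By compartment, 13 of 21 nuclear and 10 of 19 cytoplasmic members were called higher. The share of members called was therefore below that of all protein-coding genes, and no test of that difference was made.

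In upf1 cells 29 of 40 members were higher with CHX and 0 lower, against 73.9% of protein-coding genes called higher and 0.0543% called lower. Medians were 1.17 over the members and 1.25 over protein-coding genes. CHX libraries lay above DMSO libraries in 38 of 40 members, against 92.4% of protein-coding genes, and below them in 0, against 0.452%. The called members comprised 16 of 21 nuclear and 13 of 19 cytoplasmic genes. Single libraries weighed on both counts. The counts that follow have no share of all protein-coding genes from the same fits beside them. A call that outlasts such omissions is therefore not shown to be particular to the machinery. In WT 12 members were called without replicate 1 of CHX and 14 without replicate 1 of DMSO. In upf1 the count was 13 without replicate 1 of CHX, 17 without replicate 2 of CHX and 17 without replicate 2 of DMSO. Whichever of the 8 libraries was left out, 9 members stayed called in both strains: RRP40, RRP42, CSL4, DIS3, NRD1, EDC2, CCR4, POP2 and CDC36.

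Since nearly all genes shifted, each change was also taken on a second scale, on which every library has the same median over protein-coding genes. There 1 member was called in WT, CDC39, which was lower, against 5.48% of protein-coding genes called higher and 3.94% lower. In upf1 0 members were called, against 1.52% higher and 1.77% lower. At an unadjusted p under 0.05 limma gave 9 members in WT (29.7% of protein-coding genes) and 6 in upf1 (20.6%). Voom on the recovered reads called 5 members in WT and 2 in upf1, against 15.7% and 10.3% of protein-coding genes. Measured against the other protein-coding genes, then, few members stood apart. After this scaling the protein-coding median of the fitted changes was still -0.08 in WT and -0.12 in upf1.

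**Figure D3:**
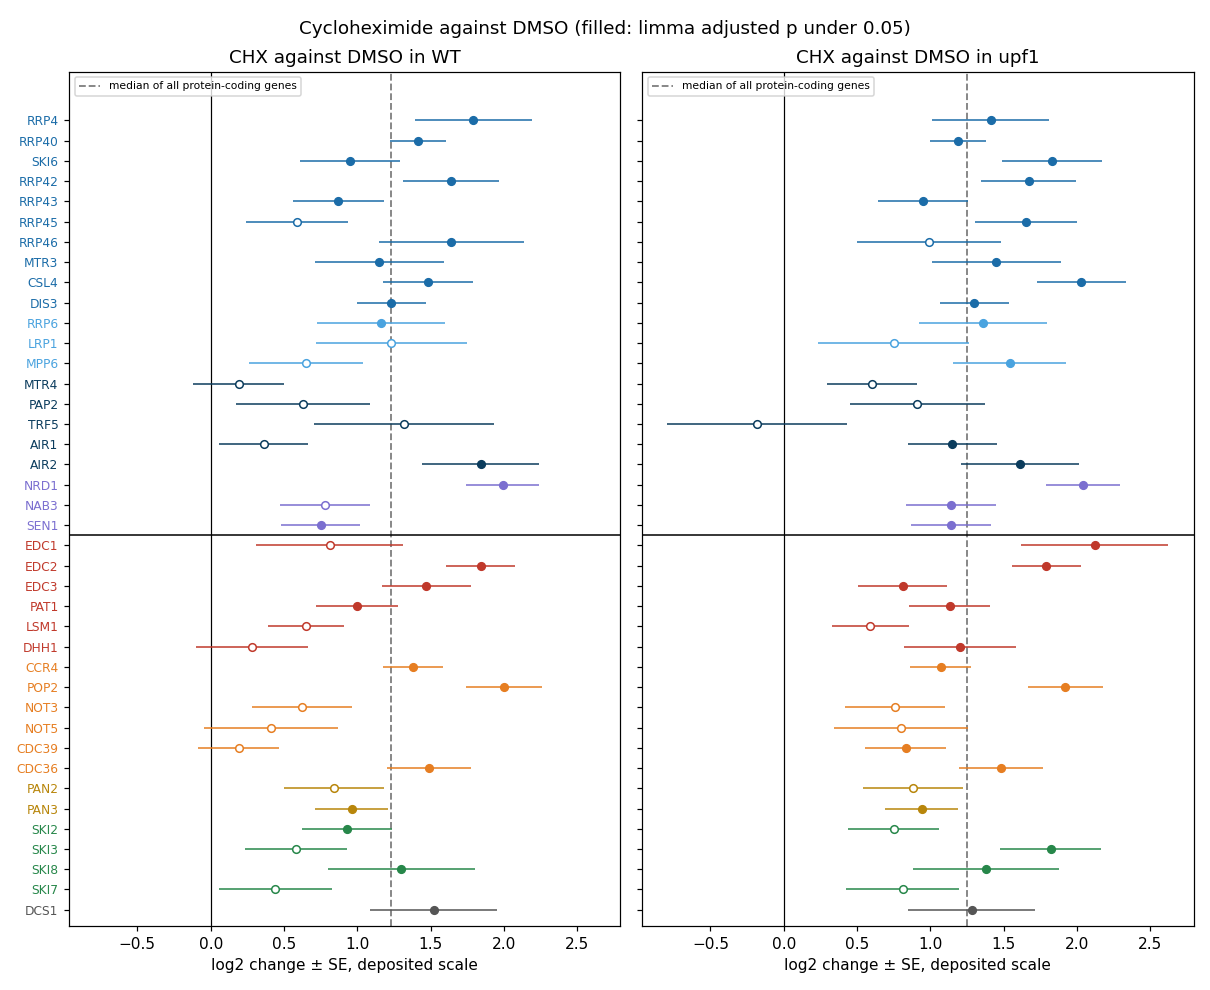
Log2 change with CHX ± SE on the deposited scale for each member in WT (left) and upf1 cells (right); names are coloured by role, filled points have a limma adjusted p under 0.05, the dashed line is the median of all protein-coding genes (1.23 and 1.25) and the horizontal line parts nuclear from cytoplasmic members. Most points lie right of 0, and NRD1, POP2 and EDC2 lie right of the dashed line in both panels, while MTR4 and CDC39 lie left of it in both.

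Nearly the whole core exosome rose, as most protein-coding genes did. With CHX, 9 of 10 subunit genes were called higher in WT and 9 of 10 in upf1, against 68.4% and 73.9% of protein-coding genes. All 10 had CHX libraries above DMSO libraries in both strains, against 85.9% and 92.4%. The median changes were 1.32 and 1.43, against 1.23 and 1.25. On the common-median scale 0 of 10 were called in either strain, and the medians were 0.01 and 0.07. The difference from all genes was not tested. RRP42 (YDL111C), a subunit of the RNase PH-like ring, stood at 48.9 and 60.4 with DMSO and 235 and 127 with CHX in WT cells, and 103 and 72.2 with DMSO and 303 and 258 with CHX in upf1 cells. Each CHX group was clear of its DMSO group, with changes of 1.64 ± 0.326 (SE, limma adjusted p = 0.00397) in WT and 1.67 ± 0.326 (adjusted p = 0.00624) in upf1. RRP4 (YHR069C), a cap subunit, had 9.37 and 19.2 with DMSO and 69.0 and 38.6 with CHX in WT cells, and 30.5 and 27.2 with DMSO and 96.0 and 66.8 with CHX in upf1 cells. Its call in WT, at 1.79 ± 0.398 (adjusted p = 0.00601), was lost without replicate 1 of WT CHX (adjusted p = 0.0512). The call in upf1 was lost without replicate 2 of upf1 DMSO or replicate 1 of upf1 CHX (adjusted p up to 0.110). CSL4 (YNL232W), another cap subunit, rose, with 11.2 and 10.8 in DMSO against 39.1 and 29.9 in CHX in WT cells, and with 12.0 and 7.05 against 49.1 and 39.4 in upf1 cells. That was 1.48 ± 0.305 (adjusted p = 0.00451) and 2.03 ± 0.305 (adjusted p = 0.00349), the latter at percentile 91.7 of protein-coding genes. DIS3 (YOL021C), the nuclease, rose by 1.23 ± 0.236 (adjusted p = 0.00339) and 1.30 ± 0.236 (adjusted p = 0.0053). RRP43 and MTR3, of the ring, were called in both strains. Leaving out 1 library ended the call in WT for 4 of the 8 libraries with RRP43 and 6 of 8 with MTR3, and in upf1 for each of the 4 upf1 libraries with both genes (adjusted p up to 0.182 and 0.263 in WT and 0.135 and 0.108 in upf1).

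A single subunit had no call in each strain, RRP45 in WT and RRP46 in upf1. RRP45 (YDR280W) stood at 13.8 and 10.8 with DMSO and 25.7 and 14.6 with CHX in WT cells, and 12.0 and 10.6 with DMSO and 49.1 and 31.7 with CHX in upf1 cells. It changed by 0.59 ± 0.347 in WT, short of a call (adjusted p = 0.154), and by 1.65 ± 0.347 in upf1 (adjusted p = 0.00768). RRP46 (YGR095C) showed the opposite order, with 3.30 and 9.80 against 31.3 and 16.3 in WT (1.64 ± 0.493, adjusted p = 0.0195) and 14.3 and 7.86 against 19.4 and 27.5 in upf1 (0.99 ± 0.493, adjusted p = 0.107). The call of RRP46 in WT was lost without replicate 1 of WT DMSO or of WT CHX (adjusted p up to 0.138) and with the WT groups alone, and that of RRP45 in upf1 without replicate 1 of upf1 CHX (0.0608). Neither difference between strains passed its own test, with interactions of 1.05 ± 0.491 for RRP45 (adjusted p = 0.580) and -0.65 ± 0.698 for RRP46 (adjusted p = 0.826). SKI6 (YGR195W), a further ring subunit, had 11.1 and 12.5 with DMSO and 33.8 and 17.7 with CHX in WT cells, and 12.2 and 16.4 with DMSO and 61.1 and 50.3 with CHX in upf1 cells. SKI6 changed by 0.95 ± 0.339 in WT (adjusted p = 0.0371; lost for 5 of the 8 libraries when left out singly, with adjusted p up to 0.210) and 1.83 ± 0.339 in upf1 (adjusted p = 0.00557). The 2 replicates of WT CHX differed for the complex as they did for most genes. All 10 subunits were higher in replicate 1, as were 4381 of 5527 protein-coding genes. The median difference was 0.75 on the log2 scale, against 0.33 over protein-coding genes, which was not tested.

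Among the nuclear exosome cofactors RRP6 (YOR001W), the nuclear nuclease, rose, with 5.18 and 3.55 in DMSO against 14.4 and 10.1 in CHX in WT (1.16 ± 0.436, limma adjusted p = 0.0439) and with 9.99 and 3.25 against 21.1 and 15.9 in upf1 (1.36 ± 0.436, adjusted p = 0.0288). Leaving out 1 library ended the call in WT for 6 of the 8 libraries (adjusted p up to 0.202), and in upf1 for 3, which were replicate 2 of upf1 DMSO and both of upf1 CHX (up to 0.155). MPP6 (YNR024W), an RNA-binding cofactor, stood at 3.93 and 7.0 with DMSO and 13.6 and 6.48 with CHX in WT cells, and 3.40 and 2.67 with DMSO and 12.8 and 12.4 with CHX in upf1 cells. Its WT groups overlapped and its upf1 groups did not (1.54 ± 0.386, adjusted p = 0.0129), a call that the same 3 libraries ended (up to 0.0678). LRP1 (YHR081W), the partner of Rrp6, had 1 and 2 reads in the WT libraries with DMSO and 7 and 8 in those with CHX, a ratio of 3.56 with an exact 95% counting interval of 1.01 to 19.2. Its levels were 1.16 and 4.11, 10.5 and 6.52, 0.999 and 4.71, and 6.79 and 4.49 in the same order of groups.

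TRAMP had the lowest median changes of the nuclear groups, 0.63 in WT and 0.91 in upf1. Called higher were 1 of 5 and 2 of 5 genes, against 68.4% and 73.9% of protein-coding genes. MTR4 (YJL050W, X:342522-345743 in R64, plus strand), its helicase, had 6.46 and 8.49 with DMSO and 9.44 and 8.12 with CHX in WT cells, and 6.79 and 8.01 with DMSO and 9.90 and 15.0 with CHX in upf1 cells. The WT groups overlapped. MTR4 changed by 0.19 ± 0.308 in WT, at percentile 5.14 of protein-coding genes, and by 0.60 ± 0.308 in upf1, at percentile 11.4. On the common-median scale its difference in WT was -1.12 ± 0.322 (limma adjusted p = 0.0665). It passed with a pseudocount of 8 (adjusted p = 0.0366) and with voom (adjusted p = 0.0366). The share of all genes called with a pseudocount of 8 is not given here.

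Of the paralogs AIR1 and AIR2, AIR2 was called in both strains and AIR1 in upf1. AIR2 (YDL175C), an RNA-binding zinc knuckle protein gene, rose, with 5.14 and 3.92 in DMSO against 20.9 and 21.8 in CHX in WT (1.84 ± 0.401, limma adjusted p = 0.00554) and with 5.08 and 14.2 against 33.1 and 28.5 in upf1 (1.61 ± 0.401, adjusted p = 0.0125). AIR1 (YIL079C), its paralog, had 12.8 and 17.4 in DMSO against 20.5 and 19.1 in CHX in WT (0.36 ± 0.301, adjusted p = 0.296) and 10.4 and 14.6 against 25.1 and 35.6 in upf1 (1.15 ± 0.301, adjusted p = 0.0145). Per length, AIR1 was above AIR2 in both WT DMSO libraries and below it in both WT CHX libraries. The difference between the paralogs' changes was not tested. In upf1 the call of AIR2 was lost without replicate 1 of upf1 CHX (adjusted p = 0.0745), and that of AIR1 without replicate 1 of upf1 DMSO or replicate 2 of upf1 CHX (up to 0.0883). PAP2 (YOL115W), the main poly(A) polymerase of the complex, had 1.55 and 5.51 in DMSO against 8.0 and 4.37 in CHX in WT and 5.80 and 3.16 against 11.1 and 8.88 in upf1, with no call (adjusted p = 0.239 and 0.109). TRF5 (YNL299W), the other polymerase, had 1 and 0 reads with DMSO and 10 and 6 with CHX in WT cells, and 6 and 4 with DMSO and 0 and 18 with CHX in upf1 cells. Its WT ratio was 11.4 with an exact 95% counting interval of 1.77 to 478, and its upf1 CHX libraries, at 0 and 4.52, lay on both sides of the DMSO libraries at 2.35 and 1.84. How reads that map to more than 1 place were counted is not given in the sources used here. The coding sequences of PAP2 and TRF5 have 69.4% identical aligned bases with a longest shared run of 20 bases, and those of AIR1 and AIR2 have 69.0% and 18 bases.

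NRD1 (YNL251C, XIV:172588-174315 in R64, minus strand), whose own transcript is known to be cut short by the termination pathway it serves, had the most reads of any nuclear member. It stood at 47.1 and 46.5 with DMSO and 218 and 169 with CHX in WT cells, and 60.6 and 42.2 with DMSO and 235 and 196 with CHX in upf1 cells. Every CHX library lay above every DMSO library, whatever the strain. The change was 1.99 ± 0.25 in WT (4.13-fold by group means, limma adjusted p = 0.000854) and 2.04 ± 0.25 in upf1 (4.19-fold, adjusted p = 0.00227). Relative to the common median NRD1 was 0.68 ± 0.183 higher in WT (adjusted p = 0.0552) and 0.67 ± 0.183 in upf1 (adjusted p = 0.107). Neither passed there, whereas both did with a pseudocount of 8 (adjusted p = 0.0157 and 0.0279) and with voom (0.0280 and 0.0388). A larger pseudocount shrinks the changes of low genes more, and the share of all genes called with 8 is not given here. NRD1 was not alone in passing in these settings. Its partners had smaller changes, a difference that was not tested. SEN1 (YLR430W), the termination helicase, rose by 0.75 ± 0.271 (adjusted p = 0.0387) and 1.14 ± 0.271 (adjusted p = 0.0109). NAB3 (YPL190C), the other RNA-binding subunit, changed by 0.78 ± 0.308 in WT, short of a call (adjusted p = 0.0513), and by 1.14 ± 0.308 in upf1 (adjusted p = 0.0161). The call of SEN1 in WT was lost for 5 of the 8 libraries when left out singly, both of WT CHX among them, and with the WT groups alone (adjusted p up to 0.127). In upf1 the call of SEN1 was lost without replicate 1 of upf1 CHX (0.0673), and that of NAB3 without either upf1 CHX library or replicate 2 of upf1 DMSO (up to 0.0828).

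Of the 6 decapping enhancers 3 were called higher in WT and 5 in upf1, against 68.4% and 73.9% of protein-coding genes. No test compared the enhancers with each other. EDC2 (YER035W, V:222639-223076 in R64, plus strand) had 186 and 118 with DMSO and 557 and 513 with CHX in WT cells, and 186 and 165 with DMSO and 635 and 590 with CHX in upf1 cells. Its CHX levels were clear of the DMSO levels, with changes of 1.84 ± 0.236 (limma adjusted p = 0.000915) and 1.79 ± 0.236 (adjusted p = 0.00254). EDC1 (YGL222C), its paralog, stood at 16.3 and 17.4, 38.0 and 25.3, 19.7 and 4.99, and 57.5 and 46.2 in the same order. EDC1 was called in upf1 (2.12 ± 0.503, adjusted p = 0.0108; lost without replicate 1 of upf1 CHX, adjusted p = 0.0675) and not in WT (0.81 ± 0.503, adjusted p = 0.176). The coding sequences of this pair have 64.9% identical aligned bases and a longest shared run of 10 bases. EDC3 (YEL015W), a scaffold of decapping bodies, rose, with 4.61 and 3.65 in DMSO against 16.6 and 13.4 in CHX in WT (1.47 ± 0.302, adjusted p = 0.00451) and with 10.6 and 8.35 against 15.0 and 21.6 in upf1 (0.81 ± 0.302, adjusted p = 0.0463). The call in upf1 was lost without any 1 of 6 libraries, those of WT CHX and both upf1 groups (adjusted p up to 0.228), with a pseudocount of 0.5, without the filter and with the upf1 groups alone.

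DHH1 (YDL160C), a DEAD-box helicase that represses translation and promotes decapping, had no call in WT. It stood at 26.0 and 33.8 with DMSO and 46.7 and 28.2 with CHX in WT cells, and 27.2 and 13.4 with DMSO and 51.7 and 42.2 with CHX in upf1 cells. The WT groups overlapped (0.28 ± 0.382, adjusted p = 0.520), and the upf1 groups did not (1.2 ± 0.382, limma adjusted p = 0.0280), a call lost without replicate 2 of upf1 DMSO or either upf1 CHX library (up to 0.155). Against the common median DHH1 was at -1.03 ± 0.273 in WT (adjusted p = 0.0532) and -0.17 ± 0.273 in upf1 (adjusted p = 0.789). In WT it passed there with a pseudocount of 0.5 (limma adjusted p = 0.0421) and with voom (adjusted p = 0.0118). LSM1 (YJL124C), a subunit of the ring that binds the 3′ ends of deadenylated mRNA, had 14.6 and 22.5, 27.7 and 31.6, 32.8 and 33.7, and 51.5 and 50.8 in the same order of groups. Its CHX values were above its DMSO values in both strains without a call (adjusted p = 0.0567 and 0.0779). PAT1 (YCR077C), the link between the ring and the decapping enzyme, was called in both strains, at 1.00 ± 0.279 (adjusted p = 0.0148) and 1.13 ± 0.279 (adjusted p = 0.0121). Its call in WT was lost without replicate 2 of WT DMSO or replicate 1 of WT CHX (adjusted p up to 0.0759), and that in upf1 without replicate 1 of upf1 CHX (0.0773).

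In Ccr4-Not the 3 abundant genes were called in both strains. Of the 3 less abundant ones 0 were called in WT and 1, CDC39, in upf1. Among protein-coding genes 68.4% were called higher in WT and 73.9% in upf1. The pseudocount shrinks the changes of low genes, and no test compared the subunits. POP2 (YNR052C, XIV:719346-720647 in R64, minus strand), a deadenylase subunit, had 35.3 and 40.7 with DMSO and 169 and 146 with CHX in WT cells, and 62.2 and 39.3 with DMSO and 199 and 186 with CHX in upf1 cells. It rose by 2.00 ± 0.258 in WT (limma adjusted p = 0.000939) and 1.92 ± 0.258 in upf1 (adjusted p = 0.00261), at percentiles 85.3 and 89.0 of protein-coding genes. Relative to the common median it was 0.69 ± 0.184 higher in WT (adjusted p = 0.0547) and 0.55 ± 0.184 in upf1 (adjusted p = 0.171). In WT it passed there with a pseudocount of 8 (limma adjusted p = 0.0171) and with voom (adjusted p = 0.0381). CCR4 (YAL021C), the main deadenylase, rose, with 60.7 and 54.3 in DMSO against 159 and 147 in CHX in WT (1.38 ± 0.207, adjusted p = 0.00146) and with 63.1 and 72.4 against 159 and 131 in upf1 (1.07 ± 0.207, adjusted p = 0.00607). CDC36 (YDL165W), which encodes Not2, rose by 1.49 ± 0.288 (adjusted p = 0.00355) and 1.48 ± 0.288 (adjusted p = 0.00623).

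CDC39 (YCR093W, III:280117-286443 in R64, plus strand), which encodes the Not1 scaffold of the complex, and MTR4 were the members furthest below the other protein-coding genes in WT, both at -1.12 on the common-median scale. CDC39 stood at 7.36 and 6.67 with DMSO and 9.32 and 7.33 with CHX in WT cells, and 8.73 and 8.67 with DMSO and 19.2 and 15.1 with CHX in upf1 cells. The WT libraries overlapped, while the upf1 CHX libraries lay above all others. On the deposited scale CDC39 changed by 0.19 ± 0.277 in WT (limma adjusted p = 0.541) and 0.83 ± 0.277 in upf1 (adjusted p = 0.0328), a call lost without each of the 4 upf1 libraries in turn (adjusted p up to 0.166). Against the common median it was at -1.12 ± 0.278 in WT (adjusted p = 0.0449) and -0.54 ± 0.278 in upf1 (adjusted p = 0.351). That call in WT was lost without any 1 of the 8 libraries and in other settings, among them no filter and the WT groups alone, and its adjusted p ran from 0.0090 with voom to 0.189 over all settings. NOT3 (YIL038C) and NOT5 (YPR072W), paralogs with 68.9% identical aligned bases and a longest shared run of 12 bases, were both without a call. NOT3 had 3.33 and 7.11, 9.47 and 7.98, 6.04 and 5.77, and 10.4 and 12.4 in the order of groups above. NOT5 had 3.02 and 7.17, 11.1 and 4.26, 7.83 and 5.64, and 11.8 and 14.5, so its WT groups overlapped.

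The other cytoplasmic genes are the second deadenylase, the Ski complex and DCS1. PAN3 (YKL025C), the regulatory subunit of Pan2-Pan3, was called in both strains (0.96 ± 0.25 and 0.94 ± 0.25, limma adjusted p = 0.0111 and 0.0152), in upf1 not without replicate 2 of upf1 DMSO or of upf1 CHX (up to 0.0942). PAN2 (YGL094C), the nuclease, missed in both (0.84 ± 0.340 and 0.88 ± 0.340, adjusted p = 0.0556 and 0.0522). Of the Ski genes, 2 of 4 were called in each strain, against 68.4% of protein-coding genes in WT and 73.9% in upf1. SKI8, a WD-repeat subunit, was called in both (1.30 ± 0.5 and 1.38 ± 0.5, adjusted p = 0.047 and 0.0419), but leaving out 1 library ended the call in WT for 6 of the 8 libraries and in upf1 for each of the 4 upf1 libraries (adjusted p up to 0.287 and 0.187). SKI2 (YLR398C), the helicase, was called in WT (0.93 ± 0.309, adjusted p = 0.0286) and not in upf1 (0.75 ± 0.309, adjusted p = 0.0635), and its call in WT was lost without either WT DMSO library or replicate 1 of WT CHX (up to 0.115). SKI3 (YPR189W), the scaffold of the complex, stood at 1.49 and 3.02 with DMSO and 5.21 and 3.44 with CHX in WT cells, and 1.28 and 1.73 with DMSO and 10.8 and 9.90 with CHX in upf1 cells. In upf1 the groups were far apart (1.82 ± 0.346, adjusted p = 0.00590), and in WT they were apart without a call (0.58 ± 0.346, adjusted p = 0.159). Since SKI3 passed the filter only through its CHX libraries, its change with CHX is not independent of that filter. SKI7 (YOR076C), which bridges the Ski complex and the exosome, had 1 and 2 reads in the WT libraries with DMSO and 4 and 6 in those with CHX, a ratio of 2.38 with an exact 95% counting interval of 0.612 to 13.4. DCS1 (YLR270W) stood at 2.75 and 7.33, 24.0 and 12.1, 13.1 and 9.10, and 30.9 and 27.8, and was called in both strains (1.52 ± 0.432, adjusted p = 0.0157, and 1.28 ± 0.432, adjusted p = 0.0340). The call in WT was lost without replicate 1 of WT DMSO or of WT CHX (adjusted p up to 0.113) and with the WT groups alone. The call in upf1 was lost without each of the 4 upf1 libraries (up to 0.151) and with a pseudocount of 0.5.

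The nuclear and cytoplasmic sets had close median responses to CHX. The nuclear median exceeded the cytoplasmic median by 0.23 in WT (1.16 against 0.93) and by 0.23 in upf1 (1.30 against 1.07). With a pseudocount of 8 the same differences were 0.05 and -0.05, and without replicate 1 of WT DMSO that in WT was 0.01. The WT difference rested on the core exosome: the other 11 nuclear genes had a median of 0.78 in WT, below the cytoplasmic one, and of 1.14 in upf1. Across the 40 members Spearman's rho between the change with CHX and the mean level was 0.54 in WT and 0.55 in upf1. With counted length it was -0.40 in both. The mean level covers all 8 libraries, those with CHX included, so it is not independent of the change. Over 5527 protein-coding genes rho with level was 0.27 and 0.12, and with length -0.23 and -0.03. The changes in WT and in upf1, which come from different libraries, had a rho of 0.42 over the members and 0.58 over protein-coding genes. These values are descriptions, since genes share libraries and the pseudocount shrinks the changes of low genes. The median counted length was 1057 bases for the core exosome, 2066 for the other nuclear genes and 2129 for the cytoplasmic genes; its part in the differences between groups was not tested.

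**Figure D4:**
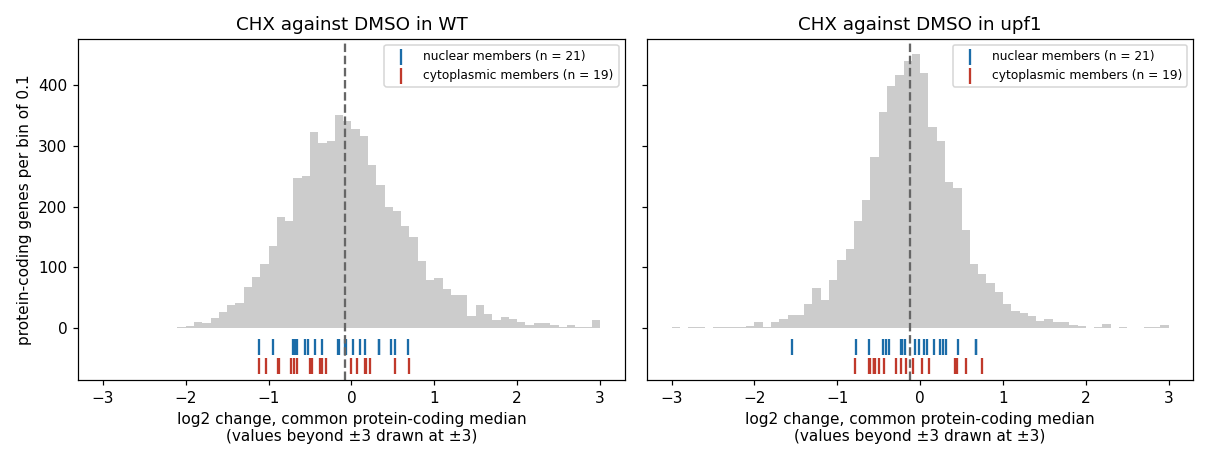
Distribution over protein-coding genes (grey bars, genes per bin of 0.1) of the log2 change with CHX on the common-median scale in WT (left) and upf1 (right), with the median dashed; ticks under the bars are the 21 nuclear (blue) and 19 cytoplasmic (red) members, and values beyond ±3 are drawn at ±3. Both sets of ticks lie within the range of all genes, between -1.12 and 0.69 for WT cells and between -1.55 and 0.75 for upf1 cells. The lowest ticks lie in the lower tail, with CDC39 and MTR4 at percentiles 5.07 and 5.14 in WT and TRF5 at 1.36 in upf1.

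Between upf1 and WT cells in DMSO a single member of the machinery passed the test. Of 40 members 1 was higher and 0 lower, against 13.1% of protein-coding genes called higher and 0.253% lower. The median change was 0.33 over the members and 0.51 over protein-coding genes, 0.33 for the nuclear and 0.34 for the cytoplasmic set. The called gene was RRP40 (YOL142W, XV:55558-56280 in R64, plus strand), a cap subunit of the exosome, with 36.2 and 37.4 in WT and 61.5 and 65.4 in upf1 cells with DMSO, and 103 and 99.6 in WT and 151 and 144 in upf1 cells with CHX. Its 4 groups did not overlap. The change in DMSO was 0.76 ± 0.191 (limma adjusted p = 0.0386), and on the common-median scale 0.13 ± 0.213 (adjusted p = 0.778). Leaving out any 1 of the 8 libraries ended the call, and its adjusted p ran from 0.0292 to 0.563 over all settings.

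The upf1 DMSO libraries lay above both WT DMSO libraries in 15 of 40 members and below them in 1, against 56.5% and 3.42% of protein-coding genes. The 1 lower member was MPP6, at -0.54 ± 0.386 (limma adjusted p = 0.374), with 3 and 3 reads in WT and 3 and 2 in upf1. EDC1 (-0.61 ± 0.503, adjusted p = 0.433) and DHH1 (-0.58 ± 0.382, adjusted p = 0.339) had the lowest changes, both with a replicate 2 of upf1 DMSO below replicate 1, at 4.99 against 19.7 and 13.4 against 27.2. RRP4 (0.99 ± 0.398, adjusted p = 0.138), DCS1 (0.96 ± 0.432, adjusted p = 0.176) and EDC3 (0.90 ± 0.302, adjusted p = 0.0857) had the highest, and their groups were apart. On the common-median scale 0 members were called, against 1.95% of protein-coding genes higher and 0.923% lower, with 8 members at an unadjusted p under 0.05 (19.7% of protein-coding genes). There DHH1 was at -1.2 ± 0.273 (adjusted p = 0.0571), and it was the 1 member called with voom (adjusted p = 0.0116; 6.98% of protein-coding genes).

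Under CHX no member differed between upf1 and WT by the limma test, where 0.0543% of protein-coding genes were called higher and 0% lower. At an unadjusted p under 0.05 there were 10 members (31.1% of protein-coding genes), and voom called 6 members (18.4% of protein-coding genes). The median was 0.53 over the members and 0.58 over protein-coding genes. Of 40 members 31 had both upf1 libraries above both WT libraries, against 66.5% of protein-coding genes, and 0 had both below, against 3.91%. SKI6 (1.11 ± 0.339, limma adjusted p = 0.140), SKI3 (0.98 ± 0.346, adjusted p = 0.165) and RRP45 (0.95 ± 0.347, adjusted p = 0.171) had the highest changes, with groups apart. TRF5 (-0.62 ± 0.614, adjusted p = 0.539), LRP1 (-0.45 ± 0.515, adjusted p = 0.596) and CCR4 (-0.08 ± 0.207, adjusted p = 0.829) had the lowest, with overlapping groups. On the common-median scale 0 members were called (0% of protein-coding genes higher, 0.163% lower; 2 members at an unadjusted p under 0.05, 14.7% of protein-coding genes), and voom called CCR4, which was lower (-0.78, adjusted p = 0.0234; 8.7% of protein-coding genes). The comparisons between strains and those with CHX share libraries.

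The response to CHX was not shown to depend on UPF1 for any member. The interaction was called for 0 of 40 members and 0% of protein-coding genes by limma, with 1 member, SKI3, at an unadjusted p under 0.05 (1.24 ± 0.489, adjusted p = 0.517; 5.07% of protein-coding genes reached that) and 0 members by voom (0% of protein-coding genes). On the common-median scale it was also called for 0 members, with SKI3 again the 1 member at an unadjusted p under 0.05 (7.02% of protein-coding genes). EDC1 had the highest interaction (1.31 ± 0.711, adjusted p = 0.638), and TRF5, with its 0 and 18 reads in upf1 CHX, the lowest (-1.50 ± 0.868, adjusted p = 0.660). The median interaction was 0.08 over the members and -0.01 over protein-coding genes.

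**Figure D5:**
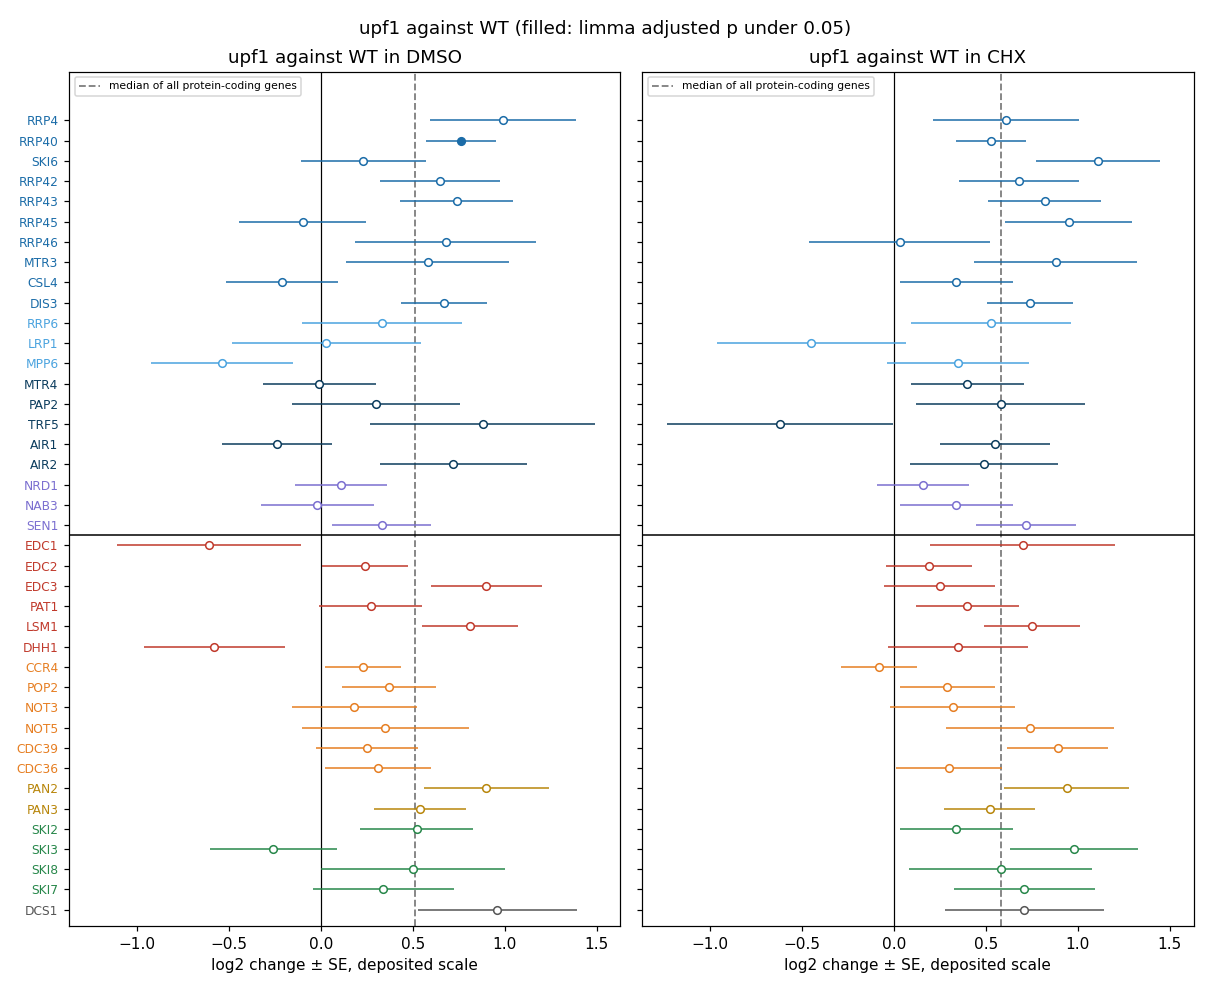
Log2 change of upf1 against WT ± SE on the deposited scale for each member in DMSO (left) and CHX (right); colours, filling and lines are as in the plot of CHX changes, and the dashed medians of protein-coding genes are 0.51 and 0.58. RRP40 is the filled point, and most members lie near or left of the dashed line in DMSO.

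Genes outside the machinery give a comparison. Of 23 other cytoplasmic decay genes 22 could be tested, and 10 were higher and 0 lower with CHX in WT (median 0.81) and 17 higher in upf1 (median 1.30). Of 15 other nuclear processing genes 14 could be tested, and 6 and 5 were higher (medians 0.94 and 0.88). Of 50 ribosome biogenesis genes 28 and 32 were higher (medians 0.92 and 0.96). Over protein-coding genes the shares called higher were 68.4% and 73.9%. By the PAC letters, with no test, the median change with CHX among nuclear members was 1.23 in the 11 genes with them and 1.05 in the 10 without in WT, and 1.19 and 1.48 in upf1, where the order was the reverse. Among cytoplasmic members it was 0.93 in 3 genes with them and 0.90 in 16 without in WT, and 1.07 and 1.04 in upf1. Over protein-coding genes the medians were 1.18 in 928 genes with the letters and 1.24 in 4599 without in WT, and 1.16 and 1.26 in upf1. Between the replicates of WT CHX, 37 of 40 members were higher in replicate 1, as were 4381 of 5527 protein-coding genes. The median difference was 0.39, against 0.33 over protein-coding genes.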

How the data were processed

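Total RNA was spiked with 3 µl ERCC mix per 1.5 µg, digested with 1 unit of Terminator for 1 h and sequenced as stranded libraries, per the labels' protocols. The submitters' processing notes list DESeq2, featureCounts 2.0.0, HISAT2 2.2.0 and Trim Galore, beside the build R64, with no roles. Normalized signal densities of 11844 features were deposited by the authors as 1 table, which also holds group means that were not used. The scaling factors and feature lengths are not given in the sources used here. For every feature a length was found that turns all of its values into whole reads under 1 scaling factor for each library (100% of values above 0 came out whole, within 0.001 reads; when values were randomly changed by 3%, such a length was found for 0 of 500 features). Recovered lengths exceeded the annotated span for 85.7% of genes.

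The main test was limma (3.58.1, R 4.3.3) with a variance trend on log2 of scaled reads per kb plus 2, over 10392 features with a mean of at least 2 in the 8 libraries, without rRNA rows. All 8 libraries were fitted together (residual degrees of freedom 4, prior 3.60). The test is two-sided, and p-values were adjusted by Benjamini-Hochberg over every feature tested, at a threshold of 0.05. Fold changes understate those of low genes. A second scale gave each library the same protein-coding median. On simulated reads for CHX against DMSO in WT (10329 features, 197 changed), 0 of 50 features raised by 1 on the log2 scale were called, 5 of 50 raised by 2, 0 of 47 lowered by 1 and 3 of 50 lowered by 2, beside 3 of 10132 that were not changed. In that simulation, where few features changed, the test missed most changes of these sizes. Its spread was assumed and not fitted to these data, and each feature had its mean over all 8 libraries as the base level in every group. The share missed in the real data is therefore not known. Correlations of log values between replicates were 0.935 to 0.954. The intervals at 95% cover counting error only. The design text calls the replicates biological; which cultures they came from is not given.

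The members, role groups and comparison lists were chosen with earlier results of these data known. Genes given in full were those called on the common-median scale, the 3 highest and 3 lowest per comparison on it, the paralog pairs, NRD1, and the most and least abundant member in WT DMSO; RRP40, RRP42, CSL4, DIS3, SKI6, RRP43, MTR3, RRP6, SEN1, NAB3, PAT1, CDC36, PAN2, PAN3, SKI2, SKI8 and any other gene given outside that rule were added after their values were seen. Of the 4 marker genes deleted in BY4741, only HIS3 was found among the deposited features, and it had reads in every library. The other 3 could not be checked here.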

Additional observations from a re-analysis of the deposited data

How the results depend on the processing

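Depth limits single members: with a median of 13 reads per member and library in WT DMSO, changes of LRP1, TRF5, SKI7 and MPP6 rest on a handful of reads, and 2 libraries per group leave few degrees of freedom. The counts called with CHX in WT and upf1 kept within 1.5 times of 23 and 29 with pseudocounts of 0.5 and 8, no filter, the groups of the comparison alone and voom, and ranged from 12 to 23 and from 13 to 31 when 1 library was left out. Quantile normalization, which makes the libraries' distributions equal and so removes the shared shift, called 3 members in WT, all lower (MTR4, DHH1 and CDC39), and 0 in upf1. The share of all protein-coding genes called with it is not given here. Quantile normalization turned the direction of 30 of the 40 changes in WT and 22 of 40 in upf1. Those with a call before or after it were, in WT, SKI6 -0.55, RRP43 -0.68, MTR3 -0.35, DIS3 -0.22, RRP6 -0.44, MTR4 -1.39, SEN1 -0.84, EDC3 -0.12, PAT1 -0.41, DHH1 -1.13, CCR4 -0.02, CDC39 -1.42, PAN3 -0.51, SKI2 -0.71, SKI8 -0.15 and DCS1 -0.00. In upf1 those with a call were RRP40 -0.10, RRP43 -0.35, AIR1 -0.15, NAB3 -0.12, SEN1 -0.13, EDC3 -0.45, PAT1 -0.18, DHH1 -0.12, CCR4 -0.23, CDC39 -0.44, PAN3 -0.34 and DCS1 -0.01.

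The single call for upf1 in DMSO became 0 with a pseudocount of 8, quantile normalization, the groups of the comparison alone, voom and without any 1 library. Under CHX the count between strains went from 0 to 6 with voom, and 0 stayed 0 in the other settings. On the common-median scale the single call in WT became 2 with a pseudocount of 0.5, 7 with 8, 5 with voom, 0 without the filter or with the groups alone, and 0 to 1 without 1 library. In upf1 0 became 4 with a pseudocount of 8 and 2 with voom, for upf1 in DMSO 1 with a pseudocount of 0.5 and 1 with voom, and for upf1 in CHX 1 with voom. With voom, 15.7% and 10.3% of protein-coding genes were called for CHX in WT and upf1, 6.98% for upf1 in DMSO and 8.7% for upf1 in CHX. Shares of all genes for the other settings are not given here, so those counts cannot be set against them. The cause of these moves was not tested. The interaction count was 0 in every setting run.

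The nuclear minus cytoplasmic median was 0.05 and -0.05 in WT and upf1 with CHX at a pseudocount of 8. Between strains it was -0.19 in DMSO and 0.09 in CHX after quantile normalization. Without 1 library it ran from 0.01 to 0.31 and from 0.17 to 0.37 with CHX, from -0.18 to 0.16 for upf1 in DMSO and from -0.04 to 0.09 for upf1 in CHX.

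Replicate numbers were also fitted as a block. Correlations of same-numbered deviations ran from -0.0438 to 0.117. With few reads for most genes, counting error can hide a shared culture or batch, so this check cannot exclude pairing. The block gave 23 and 28 members with CHX in WT and upf1, 1 and 0 between strains in DMSO and CHX, and 0 in place of 1 for CHX in WT on the common-median scale, where it ended the call of CDC39. Of the members called without it, 21 of 23 in WT (not MTR3 and SKI8) and 27 of 29 in upf1 (not EDC3 and SKI8) were shared.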
